A study of Mus musculus and Rattus norvegicus with 96 samples.

Results

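Frozen mouse liver that was later fixed in 70% ethanol and embedded in paraffin (FR > OH) was compared with frozen liver of the same mice (FR). The members were the FR and FR > OH columns of the mouse count table, 24 of the 96 samples of the series, from 12 mice with 1 portion of liver in each preparation. All mice were young adult male B6C3F1 mice, an F1 hybrid laboratory strain. Of these, 6 drank water with 600 ppm phenobarbital (PB) over 7 days, and 6 drank water alone as vehicle controls (Con). FR > OH was the fixative control of the study, for the absence of formalin crosslinks. Total RNA was sequenced after depletion of ribosomal RNA, so nuclear and noncoding RNA was read beside mRNA.

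Ethanol fixes tissue by drawing out water and coagulating protein, and it makes no covalent crosslinks, whereas formaldehyde joins protein and nucleic acid. Most RNA of a liver comes from hepatocytes, which make the plasma proteins and the drug-metabolizing enzymes. Sinusoidal endothelial cells, Kupffer cells (the resident macrophages) and stellate cells line or lie beside the sinusoids. Hepatocytes near the central vein and those near the portal tract express different enzymes, which is called zonation, and phenobarbital acts through the constitutive androstane receptor to induce Cyp2b and Cyp2c genes.

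Preparation could not be separated from other differences between the libraries. RNAzol served for extraction of FR. A kit with proteinase K and heat, and a shorter fragmentation, are stated for formalin-fixed blocks, and whether they were also used for FR > OH is not given in the sources used here. By the number in the labels read here as the lane, FR libraries were on lanes 2 and 3 and FR > OH libraries on lanes 4 and 5. The effect of ethanol, embedding, storage in a block, extraction and lane cannot be told apart. By the paper's methods, the frozen liver of each mouse was divided on dry ice, and FR and FR > OH were separate portions of it. A difference between the portions themselves cannot be told apart from these effects. Between 11737338 and 13702672 counts were on genes in an FR library (median 12454156), and between 8167321 and 11539022 in an FR > OH library (median 9222758). These totals were 48.5 ± 1.76% of the divisor of the authors' CPM in FR and 38.7 ± 2.84% in FR > OH (SD, n = 12), lower in 12 of 12 mice (exact paired permutation test, two-sided, p = 0.0004883, the smallest it can give).

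The fold change was related to base composition, as described further on, and sequences of 3 genes that rose and 3 that fell are shown for this reason. The 3 that rose are not the largest rises. Erdr1, which has many copies, and the ribosomal RNA loci Rn45s, Lars2 and Mir6236 were passed over, and the next 3 genes of the naming rule are shown. Each is the central 90 bases of the coding sequence, 5′ to 3′, of GENCODE M21 on GRCm38, with every G and C in capitals. The first 3 genes rose in FR > OH and the last 3 fell.
Tgfbr3l: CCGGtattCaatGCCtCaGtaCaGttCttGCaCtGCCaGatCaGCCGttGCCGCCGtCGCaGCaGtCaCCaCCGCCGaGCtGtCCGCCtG
Zfp579: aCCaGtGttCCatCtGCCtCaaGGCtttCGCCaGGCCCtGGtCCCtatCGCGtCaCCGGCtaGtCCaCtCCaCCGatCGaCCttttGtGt
Col11a2: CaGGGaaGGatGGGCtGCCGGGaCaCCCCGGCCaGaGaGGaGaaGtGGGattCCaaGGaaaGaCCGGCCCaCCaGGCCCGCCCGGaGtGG
S100a8: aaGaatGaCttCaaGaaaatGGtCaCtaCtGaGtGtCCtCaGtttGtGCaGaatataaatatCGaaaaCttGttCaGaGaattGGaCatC
Crip1: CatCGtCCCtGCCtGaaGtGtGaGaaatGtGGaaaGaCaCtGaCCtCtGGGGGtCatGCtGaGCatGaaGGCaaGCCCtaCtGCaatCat
Fabp4: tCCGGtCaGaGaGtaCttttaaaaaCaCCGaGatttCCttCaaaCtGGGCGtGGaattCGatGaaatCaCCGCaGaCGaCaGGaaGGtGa

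The 3 genes that rose lie at chr8:4248214-4251423 on the plus strand (Tgfbr3l, 7 exons), chr7:4992852-4995340 on the minus strand (Zfp579, 1 exon) and chr17:34039437-34066685 on the plus strand (Col11a2, 64 exons). Their coding sequences are 65.2%, 68.4% and 64.6% G and C. S100a8 (chr3:90668978-90670035, plus strand), Crip1 (chr12:113152053-113153879, plus strand) and Fabp4 (chr3:10204088-10208576, minus strand), which fell, have 41.5%, 55.1% and 48.4% G and C. Their coding sequences are 270, 234 and 399 bases long, and those of Tgfbr3l, Zfp579 and Col11a2 are 894, 1689 and 4953 bases long.

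Which genes differed between FR > OH and FR was asked first. Of 13370 genes tested, 563 were differentially expressed (DEGs, at least 2-fold and with an adjusted p below 0.05), of which 534 were higher (3.99% of genes) and 29 lower (0.217%) in FR > OH. By the adjusted p alone, 6649 genes were higher (49.7%) and 2475 were lower (18.5%). Of the 534 higher DEGs, 413 were higher in 12 of 12 mice, and of the 29 lower DEGs, 17 were lower in 12 of 12 mice. Over all genes tested, 3848 were higher and 1192 lower in every mouse.

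The split between rises and falls depended on what the counts were scaled to. Scaling here was to the total count on genes, and the median log2 fold change of all genes was then 0.18. TMM scaling, which centres the bulk of genes, put this median at −0.005, and the authors' larger divisor put it at −0.15. DEGs were 94.8% higher with the total, 75.5% higher with TMM (271 higher, 88 lower) and 41.0% higher with the divisor (168 higher, 242 lower). With TMM, 31.9% of genes passed the adjusted p as higher and 33.2% as lower. Fold changes below are on the log2 scale with total scaling, CPM are counts per 1000000 counts on genes, and a list is read against the median of 0.18.

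**Figure D1:**
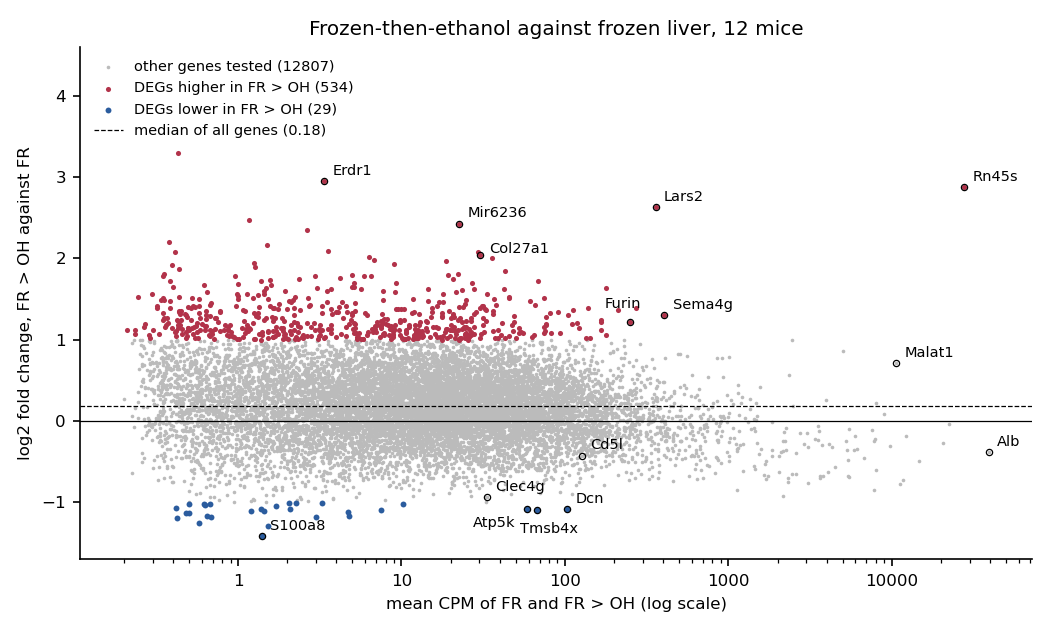
Log2 fold change of FR > OH against FR (vertical axis) against the mean CPM of both preparations (horizontal axis, log scale) for each of 13370 genes, with DEGs coloured and some of the genes named in the text ringed. The 534 higher DEGs reach 3.30, and the 29 lower DEGs reach −1.42.

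The transcripts of ribosomal RNA type rose most among abundant RNAs. Rn45s, the precursor of ribosomal RNA (chr17:39842997-39848830, plus strand), ran from 4210 to 13100 CPM (median 6040) in FR and from 24600 to 68200 CPM (median 49100) in FR > OH. The groups did not overlap, and the log2 fold change was 2.87 (SE 0.093, adjusted p = 3.74e-18). It took 0.677 ± 0.243% of the counts of an FR library and 4.87 ± 1.18% of an FR > OH library (SD, n = 12), higher in 12 of 12 mice (exact paired permutation test, p = 0.0004883). Depletion removes most but not all of this RNA, and how much it removed from each preparation was not tested.

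Lars2, which encodes the mitochondrial leucyl-tRNA synthetase and holds a stretch like ribosomal RNA in mouse, ran from 67.2 to 266 CPM (median 83.5) in FR and from 449 to 839 CPM (median 575) in FR > OH (log2 fold change 2.63, SE 0.133). Reads of ribosomal RNA can align to it, so its level as an mRNA is uncertain. Mir6236, a locus of the same kind, ran from 1.44 to 28.9 CPM (median 6.21) in FR and from 17.3 to 53.3 CPM (median 37.1) in FR > OH, with an overlap of the groups. Total RNA libraries do not measure a mature microRNA. All 3 listed loci rose in 12 of 12 mice.

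Erdr1, placed on chromosome Y in the file and known by many near-identical copies, had the largest fold change of the genes named (2.95, SE 0.177). It ran from 0.153 to 2.38 CPM (median 0.53) in FR and from 2.65 to 12.7 CPM (median 5.05) in FR > OH, and the groups did not overlap. At 2 to 29 counts a library in FR, this ratio is less precise than that of Rn45s. A230050P20Rik, a gene known by its clone name, had 9.3 to 14.9 CPM (median 10.7) in FR and 34.9 to 60.5 CPM (median 46.6) in FR > OH. Its log2 fold change was 2.08 (SE 0.061, adjusted p = 1.51e-18), and its lowest FR > OH library lay above its highest FR library.

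Other large rises were at low levels. Tgfbr3l, which encodes a protein like the type III TGF-β receptor, was listed at 0 to 0.744 CPM (median 0.359) in FR and at 1.11 to 2.67 CPM (median 2.07) in FR > OH. Zfp579, a zinc finger gene, ran from 0.507 to 1.25 CPM (median 0.854) in FR and from 2.74 to 6.45 CPM (median 4.57) in FR > OH. Neither pair of groups overlapped. Col11a2, a chain of type XI collagen, ran from 0.315 to 1.19 CPM (median 0.416) in FR and from 1.13 to 4.33 CPM (median 2.57) in FR > OH, which overlapped. Ggnbp1, a gene best known from testis, had 0.788 to 1.72 CPM (median 1.37) in FR and 2.17 to 9.55 CPM (median 6.33) in FR > OH.

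Liver genes with many counts were among the rises too. Sema4g, which encodes a transmembrane semaphorin, ran from 191 to 305 CPM (median 227) in FR and from 412 to 720 CPM (median 581) in FR > OH (log2 fold change 1.30, SE 0.056, adjusted p = 1.81e-16). Mlxipl encodes ChREBP, the transcription factor that answers to glucose. It ran from 119 to 189 CPM (median 152) in FR and from 269 to 553 CPM (median 371) in FR > OH (1.39, SE 0.058, adjusted p = 1.33e-16). Furin, a protease that matures secreted proteins, ran from 133 to 199 CPM (median 144) in FR and from 265 to 394 CPM (median 347) in FR > OH (1.21, SE 0.044, adjusted p = 1.55e-17). In none of these 3 genes did the libraries of FR and FR > OH overlap. For these and the other genes named, overlap is only described, as the share of all genes without it is not given here.

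The falls were smaller and fewer. Dcn, the proteoglycan decorin of fibroblasts and stellate cells, ran from 113 to 163 CPM (median 142) in FR and from 46.8 to 105 CPM (median 63.0) in FR > OH, without overlap. Its log2 fold change was −1.09 (SE 0.057, adjusted p = 7.6e-15). Tmsb4x, thymosin β4, which binds actin and is abundant in blood cells, ran from 66.2 to 145 CPM (median 86.1) in FR and from 21.8 to 80.9 CPM (median 37.9) in FR > OH (−1.10, SE 0.060). Its groups overlapped, while each of the 12 mice was lower in FR > OH, which the naming rule required.

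Lgals1 (galectin 1), Srgn (serglycin, a granule proteoglycan of blood cells) and Gpihbp1 (the capillary anchor of lipoprotein lipase) fell by 1.17, 1.12 and 1.10 on the log2 scale. Fabp4, a fatty acid carrier of adipocytes, macrophages and capillary endothelium, fell by 1.19, from a median of 4.26 to 1.71 CPM. Crip1 (−1.29), Lst1 (−1.11), Klhl4 (−1.11) and S100a8, a neutrophil granule protein (−1.42), held at most 69 counts in a library. Groups of these 8 genes overlapped. All 8 were lower in 12 of 12 mice, which the rule that named them required.

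**Figure D2:**
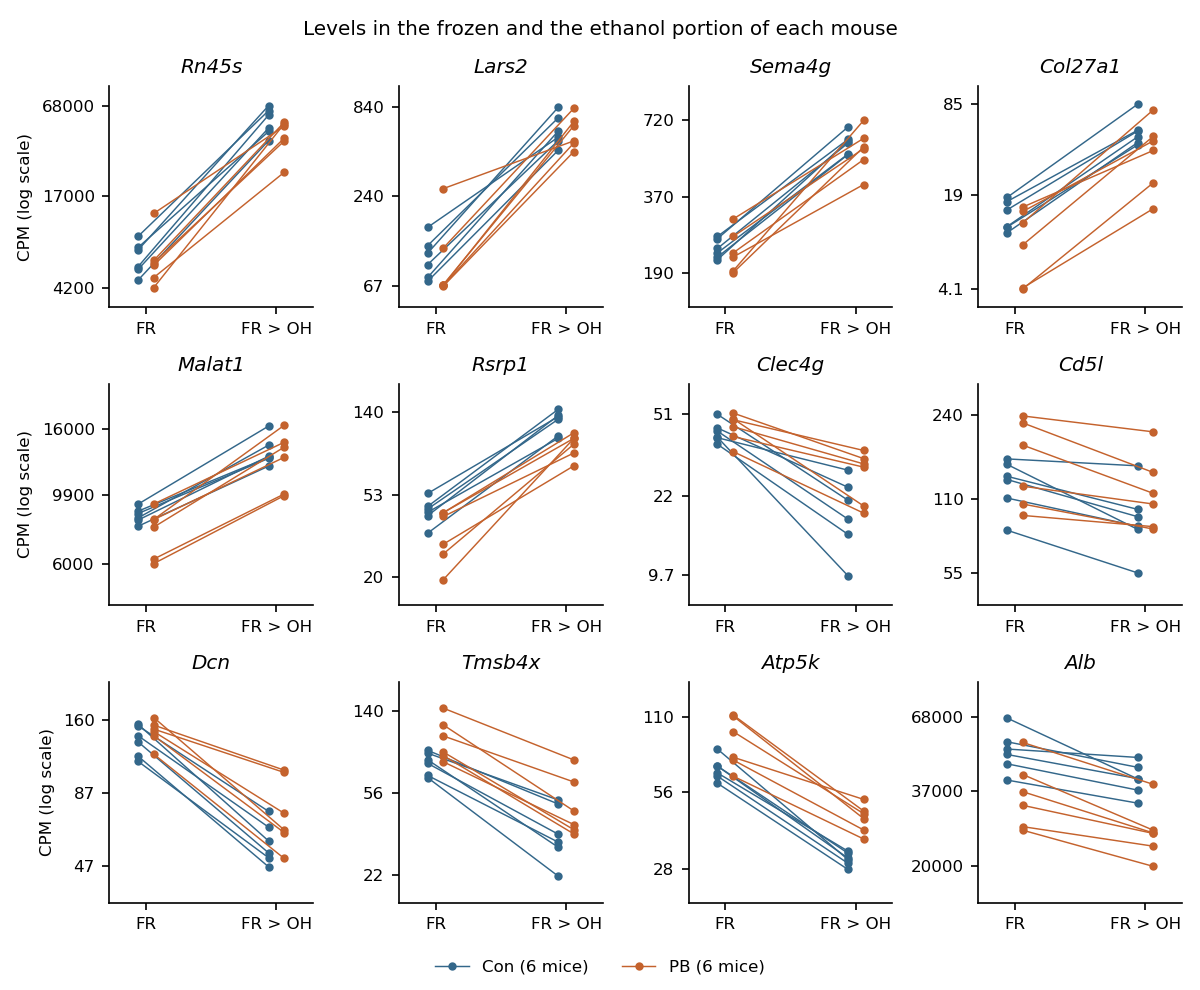
CPM (vertical axis, log scale, its own range in each panel) of 12 genes in the FR and the FR > OH portion of each mouse, joined by a line, with 6 Con and 6 PB mice coloured. Lines of Rn45s, Lars2, Sema4g, Col27a1, Malat1 and Rsrp1 climb and those of Clec4g, Cd5l, Dcn, Tmsb4x, Atp5k and Alb drop in all 12 mice.

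The fold change was related to the base composition and the length of the transcript. Both were known for 13100 of the genes tested (98%), from GENCODE M21. Across these genes, which are not independent replicates and share libraries, Spearman's rho with the log2 fold change was 0.385 for GC content and 0.304 for length. For the GC content of the coding sequence alone it was 0.425 (12575 genes). Genes were cut into 10 bins of 1310 genes by GC content. In the lowest bin (31.0 to 41.7% GC) the median log2 fold change was −0.015 and 0% of genes were higher DEGs. In the highest bin (58.0 to 72.9% GC) the median was 0.598 and 19.2% were higher DEGs.

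The difference between the highest and the lowest bin by GC content was above 0 in each mouse, at 0.584 ± 0.15 (SD, n = 12, from 0.311 to 0.748; exact paired permutation test, two-sided, p = 0.000488, the smallest it can give). Con mice had a mean of 0.678 and PB mice 0.49. By length, the first of 10 bins, with the shortest transcripts (70.0 to 1270 bases), had a median log2 fold change of −0.213, and the medians climbed to 0.286 in bins 8 and 9. The bin of the longest transcripts was at 0.274. The difference between the bins of the longest and the shortest transcripts was 0.517 ± 0.117 (SD, n = 12), from 0.389 to 0.739.

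Both relations were seen within classes of the other property. Genes were split into 3 classes of equal size by length, and each class into 4 bins by GC content. The median differed between the highest and lowest of these bins by 0.401, 0.573 and 0.56 in the class of the shortest, middle and longest transcripts. With 3 classes by GC content and 4 bins by length it differed by 0.302, 0.512 and 0.674 in the lowest, middle and highest class. The higher DEGs had a median GC content of 57.9% and a median length of 3376 bases, against 49.9% and 3111 bases for all genes. The lower DEGs had 45.8% and 1178 bases. The count-weighted mean length of a library rose by 404.3 bases, from 3458 ± 109 to 3862 ± 134 (SD, n = 12).

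Lists were therefore read also after a smooth trend in length and GC content was taken out of each library, and 53% of genes then passed as higher and 12.4% as lower, with a median of 0.184. This correction left 338 DEGs, 328 higher and 10 lower, of which 214 were among the 563. Of the genes named above, Rn45s and Erdr1 had no length or GC value and kept their fold change. Lars2 was at 2.49, Zfp579 at 1.70, Col11a2 at 1.39 and A230050P20Rik at 1.89, while Sema4g (0.89), Furin (0.74), Dcn (−0.66) and Tmsb4x (−0.58) were below 2-fold. Their adjusted p remained under 0.05 in each of these cases.

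**Figure D3:**
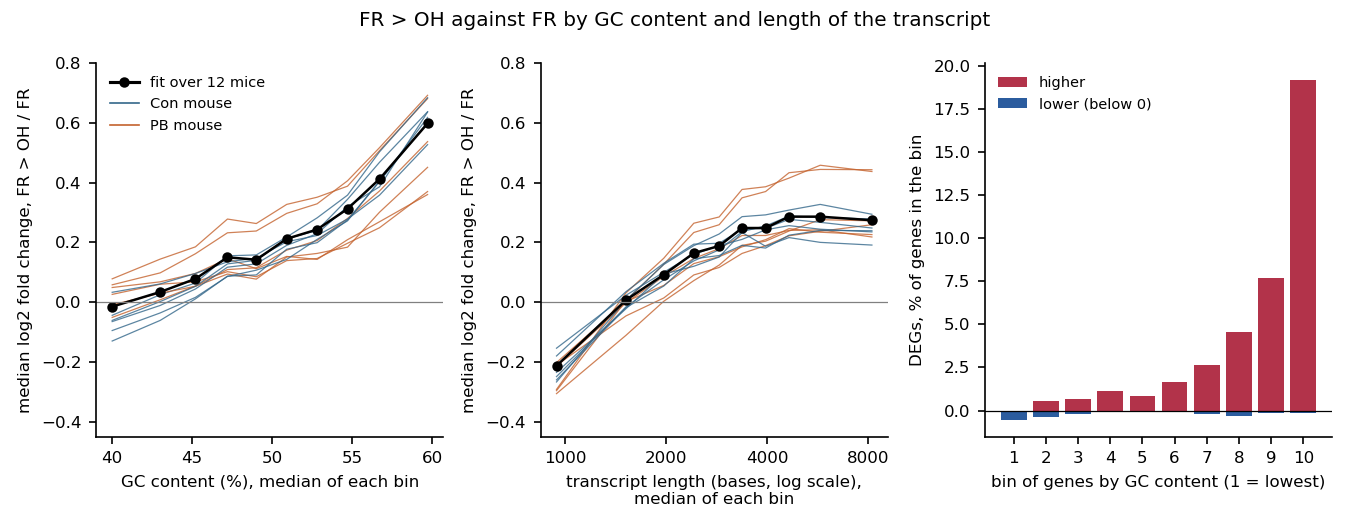
Median log2 fold change of genes in 10 bins by transcript GC content (left) and by transcript length (middle, log scale), in black from the fit over 12 mice and as a thin line for each Con and PB mouse, and the DEGs in each bin by GC content as a percentage of its genes (right, lower DEGs drawn below 0). The black line climbs from −0.015 to 0.598 with GC content, and higher DEGs climb from 0% to 19.2% of a bin.

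Nuclear noncoding RNAs were higher in FR > OH. Of 12 nuclear long noncoding RNAs tested, 10 rose and 0 fell by the adjusted p (49.7% of all genes rose), with a median log2 fold change of 0.553 (0.366 with TMM, 0.665 after the length and GC correction). With the authors' divisor 5 rose and 1 fell, with a median of 0.219. Malat1, a nuclear speckle RNA, ran from 6020 to 9270 CPM (median 8280) in FR and from 9850 to 16400 CPM (median 13100) in FR > OH, without overlap (0.71, SE 0.030, adjusted p = 2.07e-16). Firre, an RNA of the X chromosome that organizes chromatin, ran from 15.4 to 27.4 CPM (median 23.9) in FR and from 33.7 to 63.2 CPM (median 49.8) in FR > OH, also without overlap (1.11, SE 0.049). Jpx rose by 1.19 in 12 of 12 mice, and Meg3, an imprinted RNA, by 1.19 in 10 of 12 mice.

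Noncoding hosts of small nucleolar RNAs, whose spliced products are degraded fast, gave 10 of 15 higher and 0 lower, with a median of 0.482, beside 49.7% of all genes higher. With TMM 6 were higher and 1 lower, beside 31.9% and 33.2% of all genes. The hosts included Snhg20 (1.64), Snhg11 (1.24) and Gas5 (0.38). Of 119 small nucleolar and small Cajal body RNAs in the table, from any host, 30 passed the filter, and these went both ways, with 13 higher and 6 lower and a median of 0.521. Libraries of this kind recover such short RNAs poorly.

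Genes of splicing regulators rose as a list. Of 40 tested, 36 were higher and 0 lower, with a median of 0.462 (31 higher and 2 lower with TMM). Of all genes, 49.7% were higher and 18.5% lower (31.9% and 33.2% with TMM). With the authors' divisor 22 were higher and 5 lower, with a median of 0.131. Rsrp1, which encodes an arginine- and serine-rich nuclear protein, ran from 19.5 to 53.8 CPM (median 42.1) in FR and from 74.5 to 145 CPM (median 104) in FR > OH. These groups did not overlap, and its log2 fold change was 1.52 (SE 0.070, adjusted p = 6.87e-16). Clk2 (1.12), a kinase of splicing factors, rose in 12 of 12 mice. Srrm2, a large scaffold protein of nuclear speckles, ran from 280 to 461 CPM (median 361) in FR and from 487 to 862 CPM (median 650) in FR > OH (0.83, SE 0.038). After the length and GC correction 39 of the 40 were higher.

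Zinc finger proteins of the Zfp family, many of them transcriptional repressors, gave 211 of 348 higher and 2 lower, beside 49.7% and 18.5% of all genes. Their median was 0.294, and −0.034 with the authors' divisor, where that of all genes was −0.149. With TMM 125 were higher and 29 lower, beside 31.9% and 33.2% of all genes. Zfp579 (2.35), Zfp865 (1.70) and Zfp628 (1.62) rose most. Immediate early and stress genes, which respond within minutes to handling or injury, gave 14 of 20 higher and 2 lower, with a median of 0.57. Hspa1a, an inducible heat shock protein, rose by 1.48, from a median of 0.976 to 2.22 CPM, and 1 FR > OH library reached 15.1 CPM. The transcription factors Egr1 (1.08) and Jun (0.94) rose in 12 of 12 mice. Mt1, a metallothionein, fell by 0.66 on the log2 scale.

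Collagens went in both directions, with 14 of 31 higher and 4 lower, both smaller shares than the 49.7% and 18.5% of all genes. Their median was 0.245, which was −0.068 with the divisor and −0.158 after the length and GC correction. The chains with the largest rises were Col7a1 (2.21, at most 10 counts in a library), Col11a2 (2.16) and Col27a1. Col27a1 ran from 4.09 to 18.4 CPM (median 11.7) in FR and from 15.3 to 85.0 CPM (median 48.2) in FR > OH, with overlap (2.04, SE 0.084). Col18a1, a basement membrane collagen that hepatocytes also make, rose by 0.78, and the rise was 0.15 after the correction. Col6a5 (−0.65), Col14a1 (−0.51) and Col3a1 (−0.35) were the largest falls of the list. Chains of fibroblasts did not all fall, as Col1a1 rose, by at most 0.365, and did not pass as higher after the correction.

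Subunits of the electron transport chain, the respiratory complexes of mitochondria, fell. The list had 72 of 77 subunits lower (18.5% of all genes fell) and 3 higher, with a median of −0.525 (−0.711 with TMM). Atp5k, a small subunit of ATP synthase, ran from 60.6 to 112 CPM (median 72.7) in FR and from 27.9 to 52.4 CPM (median 34.8) in FR > OH, without overlap (−1.08, SE 0.052, adjusted p = 1.29e-15). Cox6b1 of cytochrome c oxidase and Uqcrb of complex III were each at −0.90, again without overlap. Atp5b, whose transcript is longer, was at −0.19. After the length and GC correction 52 subunits were lower and 12 higher, with a median of −0.196.

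Cytosolic ribosomal proteins gave 75 of 81 lower and 2 higher, with a median of −0.34, which turned to 0.020 after the length and GC correction (28 lower, 25 higher). Beside these, 18.5% of all genes were lower and 49.7% higher. After the correction 12.4% of all genes were lower and 53% higher, with a median of 0.184. Rpl30 (−0.76) and Rps27l (−0.67) fell, and Rpl4 was at −0.02 and did not pass. Proteasome subunits gave 33 of 38 lower and 1 higher, with a median of −0.398 (−0.12 after the correction). Psma2, a core subunit, fell by 0.71 on the log2 scale without overlap of the groups, and Psmd3, of the regulatory cap, rose by 0.57. Mitochondrial ribosomal proteins gave 51 of 78 lower and 11 higher, with a median of −0.253, and 29 lower and 21 higher after the correction, with a median of −0.012. Translation initiation factors went both ways, with 22 of 54 higher and 20 lower, and their median of 0.008 was −0.178 with TMM. Histones that depend on replication, whose mRNAs mostly lack a poly(A) tail, gave 18 of 47 lower and 4 higher.

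Secreted plasma proteins of hepatocytes gave 44 of 52 lower and 6 higher, beside 18.5% and 49.7% of all genes, with a median of −0.316. Together they took 27.1 ± 2.62% of the counts in FR and 22.2 ± 2.95% in FR > OH (SD, n = 12). Alb, serum albumin, ran from 26800 to 67500 CPM (median 44300) in FR and from 19900 to 48800 CPM (median 35400) in FR > OH. These ranges overlapped, and the level was lower in each of the 12 mice (−0.39, SE 0.039, adjusted p = 2.01e-09). Apoa2, a short apolipoprotein of high density lipoprotein, ran from 2930 to 5500 CPM (median 3570) in FR and from 1580 to 2840 CPM (median 2240) in FR > OH, without overlap (−0.77, SE 0.032). C4b (0.42), a complement protein with a long transcript, and Saa4 (0.45) rose.

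The major urinary proteins, a family of male liver that carries pheromones, gave 18 of 20 lower and 1 higher. Their median was −0.657, and −0.023 after the length and GC correction (5 lower, 7 higher), when that of all genes was 0.184. Members are near-identical copies, so the values of Mup19 (−0.92), Mup15 (−0.85) and Mup1 (−0.76) are uncertain for the single gene. Together they took 6.47 ± 1.48% of the counts in FR and 4.00 ± 0.902% in FR > OH (SD, n = 12), lower in 12 of 12 mice. Cytochrome P450 genes gave 27 of 53 lower and 10 higher, with a median of −0.153. After the correction 16 were lower and 16 higher, with a median of 0.004. Of all genes, 18.5% were lower and 49.7% higher before it, and 12.4% and 53% after it. Genes known to respond to phenobarbital gave 18 of 28 lower and 5 higher, with a median of −0.355.

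**Figure D4:**
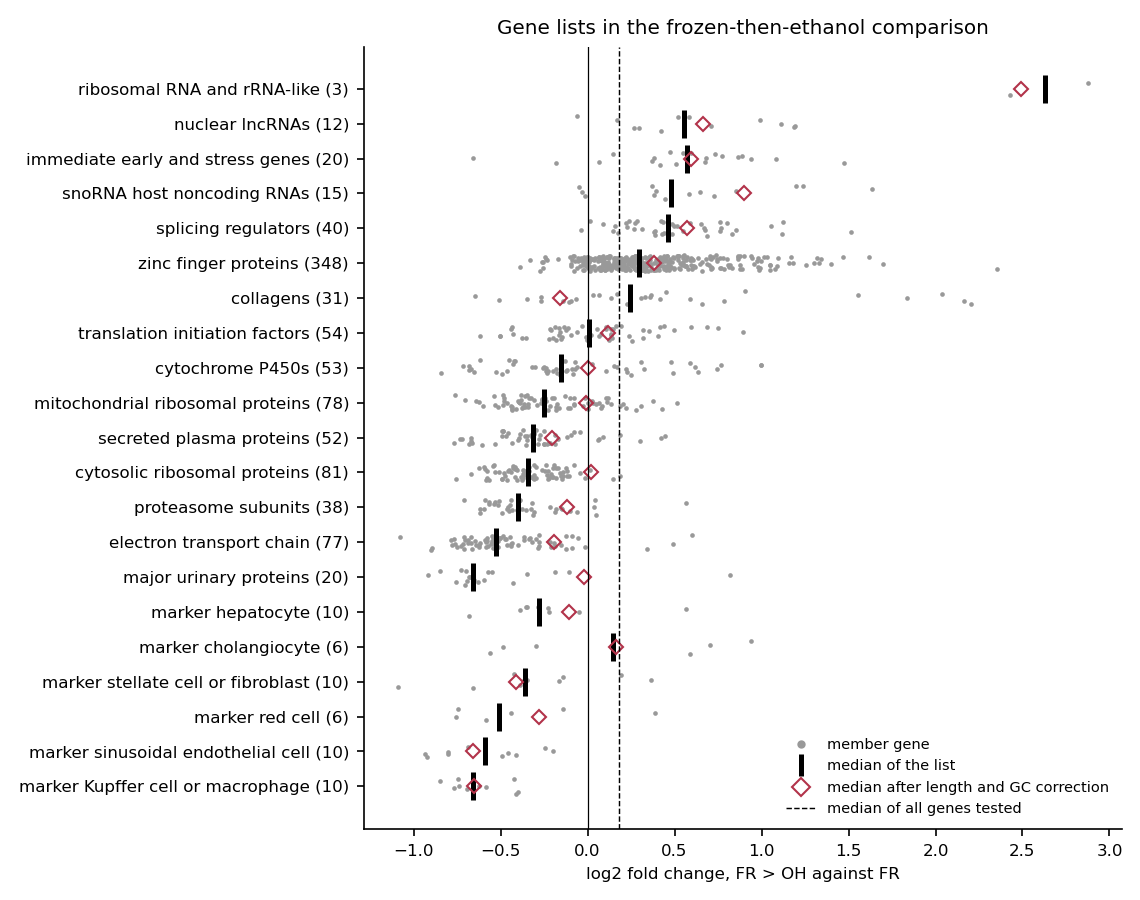
Log2 fold change of FR > OH against FR for each member (grey point) of 21 gene lists, with the list's median before (black bar) and after (open diamond) the length and GC correction and the median of all genes tested (0.179, dashed line). The median of all genes after the correction was 0.184. The diamonds of cytosolic ribosomal proteins (0.02) and of major urinary proteins (−0.023) lie below it. Those of sinusoidal endothelial (−0.658) and Kupffer cell markers (−0.654) lie further below it.

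Markers of the cells along the sinusoid were lower in FR > OH, under each scaling tried. All 10 markers of sinusoidal endothelial cells fell, beside 18.5% of all genes. Their median was −0.588 (−0.773 with TMM, −0.916 with the divisor, −0.658 after the length and GC correction). Clec4g, a C-type lectin of these cells, ran from 34.6 to 51.4 CPM (median 43.4) in FR and from 9.67 to 35.0 CPM (median 22.5) in FR > OH (−0.93, SE 0.082, adjusted p = 1.54e-10). Oit3 was at −0.93 and the Fc receptor gene Fcgr2b at −0.80. Ptprb, a receptor phosphatase of endothelium, ran from 180 to 279 CPM (median 229) in FR and from 88.9 to 265 CPM (median 157) in FR > OH (−0.49, SE 0.064). The groups overlapped in all 4 genes. In bulk samples, fewer cells of a type and less RNA per cell cannot be told apart.

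Kupffer cell markers fell likewise, 10 of 10, with a median of −0.658 (−0.84 with TMM, −0.654 after the correction). C1qa (−0.85) and C1qb (−0.77), chains of complement C1q, and Vsig4 (−0.74), a complement receptor, fell most. Cd5l, a secreted protein of Kupffer cells, ran from 82.2 to 239 CPM (median 134) in FR and from 55.2 to 206 CPM (median 96.6) in FR > OH, lower in each of the 12 mice (−0.43, SE 0.051). All 10 markers of each list remained lower after the correction, when 12.4% of all genes were lower.

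The size of this fall varied between mice. The median log2 ratio of the endothelial markers ran from −1.30 in Con mouse 8A to −0.094 in PB mouse 20D, and that of the Kupffer cell markers from −1.06 in Con mouse 21C to −0.378 in PB mouse 20B. In the 3 mice with FR > OH on lane 4 the endothelial median of the fitted fold changes was −0.946 (10 of 10 lower), and in the 9 mice with FR > OH on lane 5 it was −0.45 (9 of 10 lower). The 3 mice on lane 4 were all Con mice. Without mouse 8A the median was −0.542, with 10 of 10 lower. Which piece of a lobe each portion came from is not given in the labels, and its part in this result was not tested.

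Stellate cell and fibroblast markers gave 6 of 10 lower and 2 higher, beside 18.5% and 49.7% of all genes, with a median of −0.358. The 2 higher were Col1a1 and Pdgfrb, by at most 0.365, and 0 were higher with TMM. After the length and GC correction 8 were lower and 0 higher, beside 12.4% and 53% of all genes. Dcn fell most, and Hgf, hepatocyte growth factor made by stellate cells, ran from 23.1 to 32.2 CPM (median 26.1) in FR and from 12.6 to 21.3 CPM (median 16.3) in FR > OH, without overlap (−0.66, SE 0.054). Colec11 (−0.42) and Reln (−0.39) fell too. The summed level of the list ran from 0.0467 to 0.0656% of counts in FR and from 0.0301 to 0.0626% in FR > OH, lower in 11 of 12 mice.

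Of 10 hepatocyte markers 8 were lower and 1 higher, beside 18.5% and 49.7% of all genes, with a median of −0.282. The hepatocyte median was −0.108 after the length and GC correction, when that of all genes was 0.184. The exception, Hnf4a, a transcription factor, rose by 0.57. Red cell markers gave 5 of 6 lower, led by the β-globin gene Hbb-bs (−0.76), with a median of −0.51. This count was 0 without the mouse as a block and 0 in the 3 mice with FR > OH on lane 4. In Con mouse 82B the median log2 ratio of the list was 0.837. The summed level of the list did not pass (exact paired permutation test, adjusted p = 0.07596). Bile duct markers went both ways, with Sox9 (0.70) higher and Spp1 (−0.56) lower, and the keratins Krt7 and Krt19 and Epcam, at under 1 CPM on average, did not pass. Of neutrophil markers 3 of 6 passed the filter and went both ways, with S100a8 and S100a9 (−1.01) lower and Csf3r (0.311) higher. With TMM 0 of these were higher. T and B cell (2 genes), adipocyte (1 gene), mesothelial (2 genes) and smooth muscle markers (5 genes) were too few or too low to describe as lists.

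Whether the preparation changed Con and PB livers alike was asked next. DEGs numbered 678 in Con mice (608 higher, 70 lower) and 567 in PB mice (539 higher, 28 lower), and 362 were DEGs of both in the same direction. As a test of the difference itself, the PB effect minus the Con effect passed the adjusted p in 105 genes (0.785%), and 86 of these had a higher fold change in PB (0.643%). Of the 105, 76 fell in Con by value and fell less or rose in PB. Among the 86 were 11 cytochrome P450 genes and 7 major urinary proteins. The count of 105 rested in part on single mice: it was 41 without mouse 8A, 41 without 20B, 42 without 90C, 54 without 82B, 62 without 8D and 66 without 80B. It went up to 136 without 8C and to 152 without 18D. It was 50 with TMM scaling, 37 in a fit to all 48 libraries and 240 with no filter.

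Genes of pericentral hepatocytes, those around the central vein, stood in this set. Of 13 tested, 9 passed, all with a higher fold change in PB than in Con mice, against 0.643% of all genes, and 0 of 14 periportal genes passed. All 13 pericentral genes had a difference above 0, with a median of 0.423, and the periportal median was −0.062. The pericentral genes were named as a list with earlier results of these data known. The count of 9 was 6 with TMM scaling and 9 after the length and GC correction, and between 6 and 9 when each mouse was left out in turn, but 0 without the mouse as a block (median 0.413).

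Rgn, which encodes the calcium-binding enzyme regucalcin, fell by 0.83 on the log2 scale in Con and by 0.36 in PB mice (difference 0.47, SE 0.052, adjusted p = 2.5e-05). In Con mice it ran from 610 to 896 CPM (median 741) in FR and from 326 to 531 CPM (median 406) in FR > OH. In PB mice it ran from 593 to 902 CPM (median 756) in FR, and in FR > OH its lowest level was 483 CPM and its median 575 CPM, with overlap. The frozen livers of both treatments covered the same range, and in Con mice alone FR > OH lay clear of FR.

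Glul, glutamine synthetase, which is restricted to the cells next to the central vein, was chosen here after its values were seen. In Con mice it ran from 860 to 976 CPM (median 898) in FR and from 551 to 717 CPM (median 624) in FR > OH, a log2 fold change of −0.54 (SE 0.067). In PB mice it ran from 537 to 771 CPM (median 653) in FR and from 540 to 865 CPM (median 677) in FR > OH, a log2 fold change of 0.05 (SE 0.067). The difference was 0.59 (SE 0.094, adjusted p = 0.00173). The FR libraries of Con mice were above those of PB mice, and the FR > OH libraries of both overlapped.

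Cyp2e1, the ethanol-oxidizing P450 of pericentral cells, ran from 2950 to 4770 CPM (median 3280) in FR and from 2110 to 3720 CPM (median 2430) in FR > OH of Con mice. In PB mice it ran from 3650 to 4870 CPM (median 3950) and from 3780 to 4370 CPM (median 4010). Its fold change was −0.43 in Con and −0.03 in PB mice (difference 0.41, SE 0.057, adjusted p = 0.000545). Oat, ornithine aminotransferase, was at −0.98 in Con and −0.41 in PB mice. Cyp1a2 (0.46), Slc1a2 (0.60), Lect2 (0.35), Gulo (0.24) and Aldh3a2 (0.42) completed the 9 by their differences. The Wnt target genes Axin2 and Lgr5, and Rhbg, did not pass.

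Genes of the phenobarbital list passed in 11 of 28 cases, 10 with a higher and 1 with a lower fold change in PB mice. Of all genes, 0.785% passed. Cyp2c29 ran from 82.3 to 459 CPM (median 291) in FR and from 45.4 to 265 CPM (median 154) in FR > OH of Con mice, and from 4740 to 6260 CPM (median 5790) and from 3590 to 5290 CPM (median 3950) in PB mice. Its fold change was −0.91 in Con and −0.39 in PB mice (difference 0.52, SE 0.065, adjusted p = 0.000147). Cyp2c37 (−1.02 and −0.35), Cyp2c50 (−0.86 and −0.38) and Cyp2c54 (−1.02 and −0.41) gave like pairs of values, each with adjusted p = 0.000545. These genes share much sequence, so their counts are not independent. Cyp2b10, the classical gene of the phenobarbital response, was the exception, but it held 1 to 20 counts in Con libraries, and no fold is read from it there.

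By mouse, the median log2 ratio of the pericentral list ran from −0.535 to −0.233 in Con and from −0.153 to 0.212 in PB mice, without overlap. That of the periportal list ran from −0.19 to 0.059 and from −0.23 to −0.029. Lanes differed between the treatments, since all Con mice had FR on lane 2 while 4 of the 6 PB mice had FR on lane 3. Among the 5 mice with FR on lane 2 and FR > OH on lane 5, the Con mice 8C, 8D and 90C had pericentral medians of −0.428, −0.314 and −0.431, and the PB mice 18B and 18D had 0.049 and 0.141. With the 9 mice on lane 5 in FR > OH, 7 of 13 passed. These subsets hold few mice, and the part of lane in the difference between treatments was not tested.

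**Figure D5:**
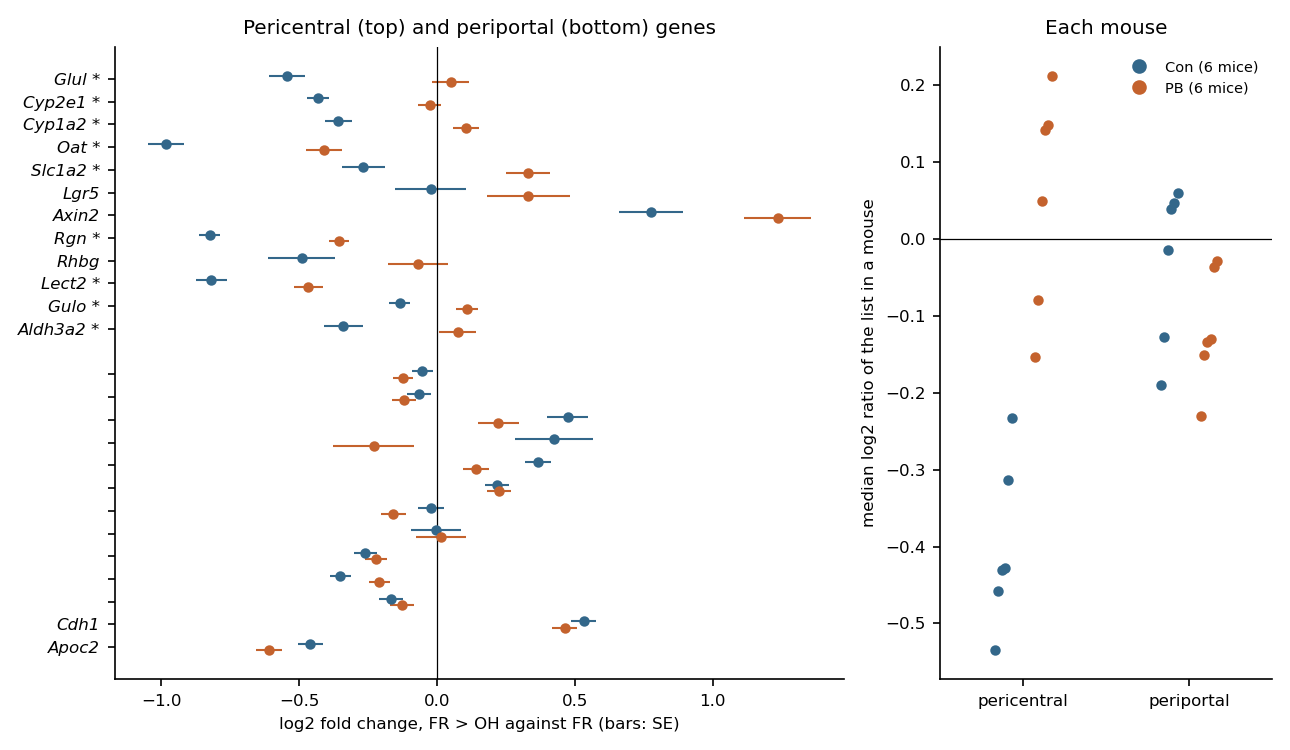
Log2 fold change of FR > OH against FR in Con and in PB mice (points, with SE bars; a star marks an adjusted p under 0.05 for the difference) for 12 of 13 pericentral and 13 of 14 periportal genes, with those named in the text labelled (left), and the median log2 ratio of each list in each mouse (right). The pericentral medians of Con mice lie between −0.535 and −0.233 and those of PB mice between −0.153 and 0.212.

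FR > OH was set last beside liver that was frozen, fixed in formalin and embedded (FR > FFPE), the preparation most like it, with freezing and embedding in common. Of 13370 genes, 21 were DEGs, 2 higher and 19 lower in FR > OH, and by the adjusted p alone 644 were higher (4.82%) and 4775 lower (35.7%). The median log2 difference of all genes was −0.134, against which the values here are read. With TMM scaling this median was −0.01, and 6 genes were DEGs. The lane also differed between these portions in each mouse, and its part was not tested. All 10 endothelial markers, 6 of 10 Kupffer cell markers and 6 of 10 stellate cell markers were lower in FR > OH. Clec4g was at −0.46, Ptprb at −0.56, Dcn at −0.56 and Tmsb4x at −0.65. Secreted plasma proteins were higher in 38 of 52, among them Alb at 0.20, and splicing regulators were lower in 30 of 40. Rn45s was higher by 0.58 (adjusted p = 9.58e-06).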

How the data were processed

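Reads were aligned by the authors to GRCm38 with STAR 2.5.3a and assigned to RefSeq transcripts in Partek by expectation maximization, which gave the deposited estimated counts per gene (24543 genes, 95.5% of values within 0.01 of a whole number). Tools and build are as the submitters' processing notes give them. The second table deposited by the authors holds log2 CPM, from which the divisor of each library was recovered. After rounding, genes whose geometric mean was above 1 count (offset 1e-04) over the 48 mouse liver libraries were kept (13370). The 24 libraries were scaled to the total count on genes. The fit (edgeR 4.0.16, quasi-likelihood, under R 4.3.3) had the mouse as a block and a preparation effect for Con and for PB. Fold changes over 12 mice are the mean of both effects. Adjusted p values are by Benjamini-Hochberg over all genes tested. FR > OH and FR > FFPE were compared in a fit to the 48 libraries.

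Pairing comes from the mouse number in the labels. Deviations from the group means correlated between the portions of a mouse at 0.584 or more in 12 of 12 mice (median 0.694, other mice −0.104). Replicates are separate mice. Library measures were tested with exact sign flips over mice, two-sided. Length and GC content were taken from GENCODE M21 by symbol, and their trend was removed by splines of 4 degrees of freedom each. Lists are read by counts and medians, and some members are not reported here by name. The fit was tested on simulated data.

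The members, lists and naming rule were chosen with earlier results of these data known. Named genes are the 10 largest rises and falls among DEGs of at least 1 CPM with the same direction in 12 mice, the 5 of these with the most counts, the 3 largest rises and falls and the most abundant member of each list, and 5 genes of the difference between PB and Con. Glul and other zonation genes, Cyp2b10, Krt7, Krt19 and Epcam were named after their values were seen. At 8167321 counts, the smallest total, a gene at 1 CPM has about 8 counts. Alternatives replaced the scaling, test (DESeq2 1.42.0, limma 3.58.1), filter, block and depth, and left out each mouse. Sequences are from GENCODE M21, and the figures were drawn in Python 3.11.15.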

Additional observations from a re-analysis of the deposited data

Results flagged for a closer look

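Values of a group of 6 mice in which 1 mouse stood apart from the rest were found in 5 of 74 groups, and chance gives about 1 in 20. The log2 ratio of Lars2 was 0.97 in PB mouse 75C, below the other 5. Those of Tgfbr3l and Zfp579 were 3.68 and 2.87 in Con mouse 8D, above the others. With libraries thinned to the same total on genes, 15160 genes had at least 1 count in the FR > OH library of PB mouse 20D, more than in the other PB libraries of this preparation. Rn45s took 1.31% of the counts in the FR library of mouse 75C, more than in the other frozen PB livers.

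The PB effect minus the Con effect of FR > OH against FR differed from 0 by edgeR's test in the 5 genes with the smallest adjusted p. The differences were 0.47 for Rgn, 0.52 for Cyp2c29, 0.67 for Cyp2c37, 0.48 for Cyp2c50 and 0.61 for Cyp2c54, on the log2 scale.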

How the results depend on the processing

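The 563 DEGs over 12 mice became 359 with TMM scaling (300 shared), 338 after the length and GC correction (214 shared) and 345 with a GC correction alone, which was added after the data were seen (289 shared). They were 9124 by the adjusted p alone and 362 when called in Con and in PB mice. In Con mice 678 became 7740 by the adjusted p alone. In PB mice 567 became 353 with TMM, 334 with the divisor, 343 with DESeq2, 348 with limma and 7603 by the adjusted p alone. Genes with a 2-fold difference between PB and Con numbered 6, then 11 with the divisor, 1 with DESeq2, 17 with no filter, 3 with all 48 libraries and 105 by the adjusted p alone. DEGs of FR > OH against FR > FFPE numbered 21, then 6 with TMM and 5419 by the adjusted p alone. Leaving out 1 mouse gave 507 to 621 DEGs over 12 mice, 634 to 745 in Con, 447 to 658 in PB, and 2 to 7 for the difference. The difference fell from 6 to 3 without mouse 8A, 3 without 8D, 2 without 90C and 2 without 20B.

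Without the replicate block, which sets aside the pairing by mouse, 550 genes were DEGs (538 shared), 17 were DEGs of FR > OH against FR > FFPE, and 0 genes differed between PB and Con by edgeR's adjusted p, against 408 at an unadjusted p under 0.05. The pericentral count was then 0 of 13, with a median of 0.413. It was 9 with DESeq2.

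List medians changed sign after the length and GC correction for cytosolic ribosomal proteins (0.020), collagens (−0.158), P450 genes (0.004), periportal genes (0.006) and smooth muscle markers (−0.272, and −0.155 with GC alone). With TMM, the divisor and DESeq2 size factors they did so for initiation factors (−0.178, −0.322, −0.168), bile duct markers (−0.035, −0.176, −0.025) and smooth muscle markers (−0.154, −0.297, −0.145), and with the divisor for zinc finger proteins (−0.034) and collagens (−0.068). The median of all genes moved as well, from 0.179 to −0.005 with TMM and −0.149 with the divisor. Initiation factors, bile duct markers and smooth muscle markers were below it with the total, TMM and the divisor. Zinc finger proteins and collagens were above it with all of these. Cyp2e1 was at 0.073 after the length and GC correction. Beyond the scaling, depth and the correction, the cause of these changes was not tested. Genes with at least 1 count fell by 106.8 in FR > OH at full depth and rose by 148.7 when libraries were thinned to 8167316 counts.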

Other observations

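Within lists whose members went both ways, single genes moved clearly. Among translation initiation factors, Eif4ebp2, a brake on cap-dependent translation, ran from 43.6 to 69.4 CPM (median 55.6) in FR and from 75.7 to 130 CPM (median 102) in FR > OH, without overlap (0.89, SE 0.039, adjusted p = 3.13e-16 by edgeR). Eif4g3, a scaffold of the cap-binding complex, ran from 59.0 to 94.9 CPM (median 79.3) in FR and from 101 to 149 CPM (median 135) in FR > OH. Eif3m, a small subunit of the factor eIF3, ran from 31.1 to 35.7 CPM (median 32.7) in FR and from 17.5 to 28.1 CPM (median 21.5) in FR > OH (−0.62, SE 0.048), also without overlap.

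Of 3 transcripts of RNA polymerase III, Vaultrc5, a vault RNA, rose by 0.75 (SE 0.075), from a median of 54.3 to 90.4 CPM, while the RNA subunits of RNase MRP (Rmrp, −0.13) and RNase P (Rpph1, −0.06) did not pass, and their total RNA level is read with the caution due to short transcripts. Among periportal genes, Cdh1, the adhesion protein E-cadherin, rose by 0.50, and Apoc2 (−0.53) fell. Among phenobarbital-responsive genes, Gstm2 (−0.75) and Cyp3a11 (−0.68) fell. Cyp3a11 ran from 30.3 to 11400 CPM in FR, since the range spans both treatments.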
